A study of Mus musculus with 16 samples.

Results

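A set of 65 splicing-factor genes was followed in the hypothalamus of obese mice, out of 24047 genes in the count table. The set was chosen by symbol: the SR proteins (Srsf), the SR-related matrix proteins (Srrm), the RNA-binding motif genes (Rbm), the Clk kinases and the Luc7-like genes, with Clasrp, Safb, Safb2, Leng8, Akap8l, Tra2a, Tra2b and Son added by name. A total of at least 160 counts over the 16 libraries was also required. Of 70 genes matched by name, 5 fell under that minimum: Rbm46 with 157 counts in all, Rbm3os with 85, Srrm4os with 10, Rbm44 with 6 and Rbm46os with 3. The members just inside it were Rbm38 with 392 counts, Rbm47 with 487 and Rbm20 with 527. The added names were taken up because some of them had been seen to be higher with celastrol in these same libraries. The difference of the libraries labelled CS from those labelled Veh is therefore given for these genes as a description, without a test.

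The tissue came from C57BL/6J mice made obese by a high-fat diet, with 4 libraries in each of 4 groups. All mice had a lead-in of 1 week of daily DMSO injections, and treatment then ran for 4 days. Veh mice received DMSO with food freely available. CS mice received celastrol, a triterpenoid of plant origin under which obese mice eat less, at 100 µg per kg per day by intraperitoneal injection, also with free food. PF mice received a ration of 0.5 g of the high-fat diet a day, with 0.34 g offered for the dark cycle and 0.16 g for the light cycle, below the 0.8 g that celastrol-treated mice ate on average. Mice of the PF+CS group had both the celastrol injections and that ration. The injection given to PF mice and the age of the mice are not stated in the labels. Tissue was collected 6 h after a final injection given at about 8 in the morning. The labels do not say whether mice shared cages, litters or collection days, so p-values measure the spread between these libraries.

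SR proteins carry RNA-recognition domains and a tail rich in arginine and serine, with which they mark exons and recruit the spliceosome. Their tails are phosphorylated by Clk kinases, which release them from nuclear speckles, the bodies built on the scaffold proteins Srrm2 and Son. RBM proteins are a looser family that shares the RNA-recognition motif. They include spliceosome components, splicing regulators and RNA-binding proteins with other roles. In neurons, splicing factors of these families set the choice of neural exons, and many control their own level through an exon whose inclusion leads to decay of the RNA. Counts here are per gene, so the forms of a transcript cannot be told apart.

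The names of the groups need a caution before any result. In the authors' deposited comparison tables, the mean normalised counts of the table named for Veh and CS were those of the Veh and PF columns. The table named PF v Veh matched the columns of Veh and CS. The table named PF v PF+CS matched the columns of PF+CS and CS. This leaves 3 of 5 names in conflict, and exchanging PF with CS would resolve all 5. The sample titles carry the names of the count columns, and those are used here. If the exchange were real, what is given for CS minus Veh would belong to PF minus Veh and the reverse. The contrasts of PF+CS with PF and with CS would likewise exchange. PF+CS minus Veh and the interaction do not depend on it.

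Library totals ranged from 6008564 counts in PF 1 to 12880459 in Veh 3. The 15 hypothalamic neuropeptide and transcription factor markers that were listed had counts in every library, from 1.69 to 7.43 CPM (library-scaled counts) for Crh up to 274 to 450.03 CPM for Pmch. Markers of meningeal fibroblasts were low in 5 libraries, PF+CS 4, CS 2, PF 1, PF 2 and Veh 3. Their 8 markers summed to 68.0 to 262 CPM in Veh, to 63.0 to 243 CPM in PF, to 76.6 to 303 CPM in CS and to 67.9 to 302 CPM in PF+CS. With 2 of its 4 libraries low, PF had the lowest mean, at log2 -0.66 from Veh, against 0.12 for CS and 0.03 for PF+CS. All 65 members passed the filter on low counts, within 14775 genes tested. The tissue is a mixture, in which fewer cells of a type and less RNA per cell cannot be told apart.

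Per unit of transcript length, the members covered a wide range of levels. In FPKM (fragments scaled by length and library size, mean over 16 libraries), Srrm2, the large speckle scaffold, stood at 42.0 and Srsf5, an SR protein, also at 42.0. They were followed by Rbm39, a relative of the splicing factor U2AF, at 26.9, by the U1 snRNP partners Luc7l2 at 24.5 and Luc7l3 at 21.1, and by Son at 22.6. The median member stood at 6.91 FPKM. At the low end were Rbm20, known for titin splicing in heart muscle, at 0.174 FPKM, Rbm47, an epithelial RNA-binding protein, at 0.219 and Rbm38 at 0.488. Within families, Clk1 at 18.7 was the most abundant Clk kinase and Clk2 at 3.57 the least. Tra2b at 13.8 and Tra2a at 12.5, the paired SR-like activators, differed by less than the SD of Tra2a over the libraries. Srrm4, the neural microexon regulator, stood at 3.10 FPKM, the lowest of the 5 Srrm and Son genes. Among the 11 Srsf genes Srsf12 was the lowest at 3.26, and of the 3 Luc7-like genes Luc7l was the lowest at 12.3.

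**Figure D1:**
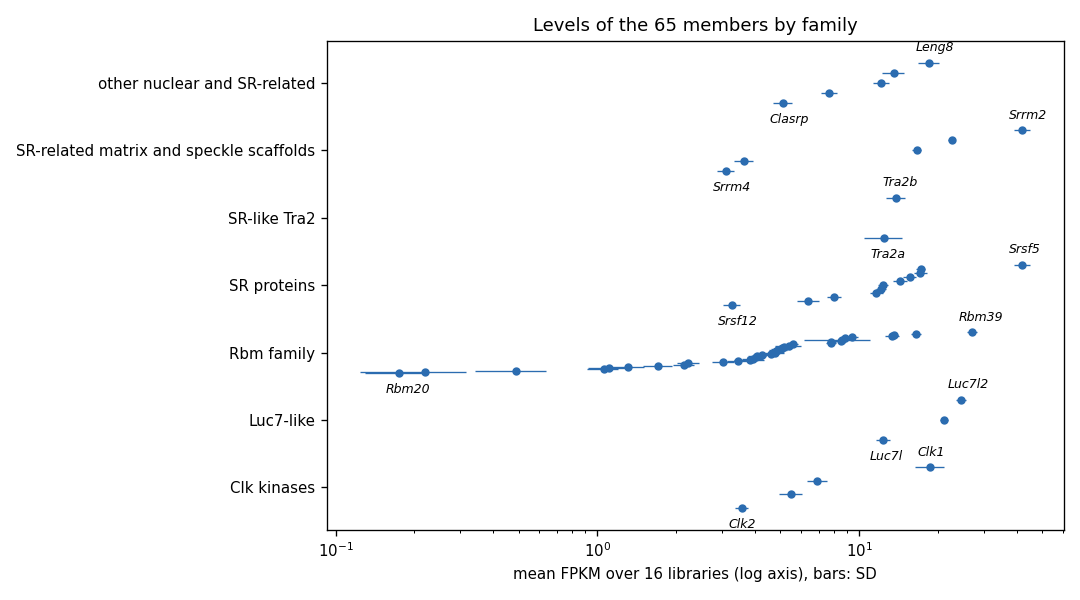
Mean FPKM of each of the 65 members over 16 libraries, on a log axis, with the SD as bars, sorted within families. Srrm2 and Srsf5 stand highest at 42.0 FPKM each, and Rbm20 lowest at 0.174 FPKM.

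The members also differed in how steadily they were expressed. The standard deviation of log2 CPM within groups was smallest for Son at 0.034 and for Rbm33 at 0.039, had a median of 0.083, and was largest for Rbm47 at 0.59. Son was 534 to 559 CPM in Veh, 527 to 567 in PF, 542 to 556 in CS and 537 to 568 in PF+CS, so its groups overlapped throughout. Tra2a varied more, at 55.2 to 79.9 CPM in Veh and 67.4 to 104 CPM in PF, with a within-group SD of 0.20.

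The promoters of the members the results turn on are shown because these genes were high in the same libraries. Each is the 250 bases before the transcription start in RefSeq (GRCm38.p6), read in the direction of the gene. Capitals mark motifs on either strand, except in Safb2, where they mark the bases that its window shares with that of its neighbour Safb. The first motif marked is the GC box, spelled GGGCGG, which Sp1 and related factors bind. Another is the CCAAT box, spelled as in its name, the site of the factor NF-Y. The last is a site of the ETS factors that are common at broadly active promoters, spelled CCGGAAG. The windows are chr17:23802937-23803186 on the plus strand for Srrm2, chr7:4136806-4137055 on the plus strand for Leng8 and chr17:32350578-32350827 on the minus strand for Akap8l. Those of Clasrp and Safb2 are chr7:19604487-19604736 and chr17:56584586-56584835, both on the minus strand.
Srrm2: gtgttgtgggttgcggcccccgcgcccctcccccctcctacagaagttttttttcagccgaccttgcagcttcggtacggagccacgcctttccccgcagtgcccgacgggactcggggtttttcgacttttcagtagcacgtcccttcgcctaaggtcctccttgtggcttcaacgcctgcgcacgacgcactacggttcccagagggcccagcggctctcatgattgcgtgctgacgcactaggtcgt
Leng8: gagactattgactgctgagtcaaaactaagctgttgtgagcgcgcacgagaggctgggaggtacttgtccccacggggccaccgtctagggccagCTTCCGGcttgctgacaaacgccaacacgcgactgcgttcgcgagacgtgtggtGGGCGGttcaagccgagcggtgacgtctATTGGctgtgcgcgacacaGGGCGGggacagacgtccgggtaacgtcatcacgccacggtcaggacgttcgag
Akap8l: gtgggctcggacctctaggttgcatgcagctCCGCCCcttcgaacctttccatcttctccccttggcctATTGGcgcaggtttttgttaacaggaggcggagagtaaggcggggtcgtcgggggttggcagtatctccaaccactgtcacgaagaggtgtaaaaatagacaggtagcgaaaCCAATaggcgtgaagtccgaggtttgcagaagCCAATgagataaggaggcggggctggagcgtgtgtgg
Clasrp: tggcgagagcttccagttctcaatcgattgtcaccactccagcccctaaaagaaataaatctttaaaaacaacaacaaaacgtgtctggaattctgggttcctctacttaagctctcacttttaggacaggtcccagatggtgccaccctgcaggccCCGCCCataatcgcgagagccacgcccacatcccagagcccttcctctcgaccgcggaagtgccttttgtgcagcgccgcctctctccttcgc
Safb2: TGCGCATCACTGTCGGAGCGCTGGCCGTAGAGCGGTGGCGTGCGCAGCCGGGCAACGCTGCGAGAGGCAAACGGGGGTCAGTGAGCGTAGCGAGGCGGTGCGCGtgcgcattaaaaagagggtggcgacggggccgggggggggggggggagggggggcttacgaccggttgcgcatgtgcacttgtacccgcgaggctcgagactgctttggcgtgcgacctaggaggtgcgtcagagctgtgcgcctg

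The Srrm2 window held none of these 3 motifs. Leng8 held 2 GC boxes, 1 CCAAT box and 1 ETS site, Akap8l held 1 GC box and 3 CCAAT boxes, and Clasrp held 1 GC box. Safb2 and Safb are read in opposite directions from starts 397 bases apart, and their windows share 104 bases. RefSeq windows were matched for 56 of the 65 members. A GC box was found in 30 of those 56 (53.6%) against 32.9% of all 27025 promoters, a CCAAT box in 41.1% against 34.5%, and an ETS site in 17.9% against 7.05%. The 27025 promoters were not limited to genes expressed in this tissue, whereas all members passed the filter on low counts. These shares therefore do not compare members with other expressed genes. The heat shock element, searched as GAANNTTC, was in 5.36% of member windows and 6.78% of all. Member windows were richer in GC, with a median of 61.2% against 52.0% and 19 CpG against 6, and the GC box and the ETS site are themselves rich in these bases. A match describes letters in the window and not a bound site.

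Celastrol under the ration, PF+CS minus PF, was the comparison that shares no library with CS minus Veh, where some members had been seen to be high. Earlier results of these data were known when the members were chosen, so the test of PF+CS minus PF may not be independent of that choice. Akap8l, Srrm2 and Leng8, genes of nuclear and speckle proteins, rose, and no other member passed the test. By edgeR's quasi-likelihood test on all 16 libraries, 3 of 65 members rose and 0 fell, where 0.088% of all genes tested were called higher and 0.00677% lower. The members as a whole had a median log2 difference of 0.01 against -0.01 over all genes, and 37 of 65 lay above 0 against 47.3% of all genes.

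Srrm2 (ENSMUSG00000039218.17, chr17:23790532-23824741, GRCm38), the speckle scaffold that also sits in the active spliceosome, was measured at 1091, 982, 1030.0 and 1018 CPM in Veh and at 968, 1045, 1087 and 1102 CPM in PF. It was 1169.7, 1232, 1219 and 1212 CPM in CS and 1204, 1267, 1257 and 1175 CPM in PF+CS. Every library with celastrol was above every library without it, and Veh and PF overlapped. The CS and Veh values bore on the choice of members, so CS minus Veh was given no test. PF+CS exceeded PF by log2 0.22 (SE 0.04, adjusted p = 0.0106), from 1051 ± 60.1 to 1226 ± 43.8 CPM (SD, n = 4). CS stood above Veh by log2 0.23 (interval 0.16 to 0.30), given as a description. The interval is the 95% interval, 1.96 SE either way, here and below.

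Akap8l (ENSMUSG00000002625.10, chr17:32321424-32350607), a nuclear relative of the protein kinase A anchor Akap8, stood at 108, 100.8, 103 and 103 CPM in Veh and at 96.4, 106, 103 and 125 CPM in PF. It was 115, 120.1, 122 and 118 CPM in CS and 137, 132, 138 and 126 CPM in PF+CS. PF+CS was the highest group, without overlap with any other, although PF 4 came close to its lowest library. The difference PF+CS minus PF was log2 0.30 (SE 0.05, adjusted p = 0.0106 by edgeR), and that of CS from Veh was 0.20.

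Leng8 (ENSMUSG00000035545.13, chr7:4137039-4148177), named for its place in the leukocyte receptor cluster, was 286, 264, 256 and 253 CPM in Veh and 226, 238, 274 and 263 CPM in PF. It was 289.8, 302, 322 and 321 CPM in CS and 293, 304, 308 and 295 CPM in PF+CS. Again all libraries with celastrol lay above all those without. PF+CS exceeded PF by log2 0.26 (SE 0.05, adjusted p = 0.0310 by edgeR), and CS exceeded Veh by 0.23 as a description.

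**Figure D2:**
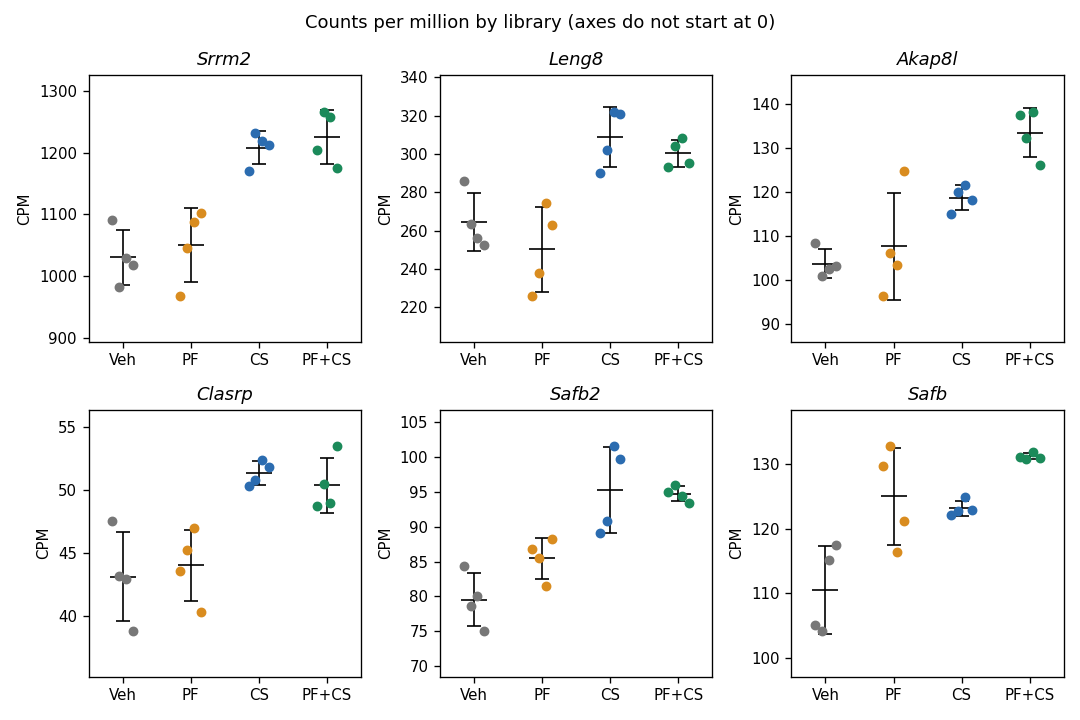
CPM of members in each library by group, with the group mean and SD as bars; axes do not start at 0. For Srrm2 and Leng8 all 8 libraries with celastrol lie above all 8 without it, and for Akap8l the PF+CS libraries lie above those of every other group.

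Clasrp (ENSMUSG00000061028.7, chr7:19581035-19604486), an SR-rich protein that binds the kinase Clk4, and Safb2 (ENSMUSG00000042625.16, chr17:56560965-56584585), a scaffold attachment factor that binds RNA and chromatin, were higher on average in PF+CS than in PF without passing the test. Clasrp was 47.5, 43.2, 42.9 and 38.8 CPM in Veh, 43.6, 45.2, 47.0 and 40.3 in PF, 50.3, 50.8, 52.4 and 51.8 in CS and 48.7, 50.5, 48.96 and 53.5 in PF+CS. Its PF+CS minus PF difference was log2 0.20 (interval 0.08 to 0.32, adjusted p = 0.289 by edgeR). Safb2 was 84.4, 78.6, 80.03 and 75.1 CPM in Veh, 86.8, 85.5, 81.4 and 88.2 in PF, 89.2, 90.8, 102 and 99.7 in CS and 95.1, 96.0, 94.4 and 93.4 in PF+CS. Its PF+CS minus PF difference was log2 0.15 (interval 0.05 to 0.24, adjusted p = 0.373). For both genes the PF+CS libraries did not overlap the PF libraries. In all, 5 members were above without overlap between PF+CS and PF, namely these 2 with Srrm2, Leng8 and Akap8l, where 2.16% of all genes were. Rbm18 was the member below without overlap, where 2.0% of all genes were.

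The Srrm2 call was lost without PF 2 (adjusted p = 0.0557), and the Akap8l call without PF 1 (0.0548), PF 2 (0.0952) or PF+CS 3 (0.0674). All 8 meningeal markers lay above 0 in this contrast, with a median log2 difference of 0.57, and 0 of them were called. Without the 5 libraries low in those markers none of the 3 genes passed, at adjusted p = 0.301 for Srrm2, 0.422 for Akap8l and 0.568 for Leng8, and the log2 differences were 0.18, 0.24 and 0.17. No member passed on the FPKM values, and the Leng8 call was lost in 16 of 28 alternatives.

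The next members in order were Rbm41 at log2 0.14, Srsf5 and Clk2, each also at 0.14. At the other end were Rbm20 at -0.23, Rbm4 at -0.15, Rbm17, a splice-site selector, at -0.12, Rbm3 at -0.12, Rbm22, a component of the catalytic spliceosome, at -0.11 and Rbm18 at -0.10. None of these passed the test. The 35 Rbm genes had a median of -0.02 with 13 above 0, and the 11 Srsf genes a median of 0.02 with 9 above 0. All 5 Srrm and Son genes and all 5 of Clasrp, Safb, Safb2, Leng8 and Akap8l lay above 0, though the second of these groups was assembled from genes seen high with celastrol.

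In CS minus Veh, the comparison behind the choice of members, values are given without a test. The highest log2 differences were those of Rbm47 at 0.58, with 1.26 to 2.73 CPM in Veh and 2.04 to 3.56 in CS, then Safb2 at 0.27, Clasrp at 0.26, Rbm41 at 0.25, Srrm2 at 0.23, Leng8 at 0.23, Akap8l at 0.20 and Clk1 at 0.19. The lowest were those of Rbm19 at -0.24, Rbm42 at -0.22, Rbm20 at -0.21, Rbm48 at -0.19 and Rbm4b at -0.15. There were 14 members above without overlap and 0 below, where 3.68% of all genes were above and 5.27% below. The 14 included Srsf5, Srrm1, Luc7l2, Luc7l3, Rbm22, Rbm27, Rbm33, Rbm39 and Safb beside Srrm2, Safb2, Clasrp, Leng8 and Akap8l. The count is a description, since the choice of members used these libraries.

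Of 65 members, 46 had the same sign in CS minus Veh and PF+CS minus PF, against 59.1% of all genes. Across members the log2 differences had Pearson's r = 0.45 and Spearman's rho = 0.44, and across all genes r = 0.28. Genes are not independent replicates, and the first of these contrasts guided the choice of members. The difference between the contrasts, which is the interaction of celastrol with feeding, was called for 0 of 65 members, where 0.0% of all genes were called. At an unadjusted p under 0.05 there were 4 members, or 6.15%, namely Rbm17, Rbm19, Rbm22 and Rbm27, against 5.02% of all genes. DESeq2 and voom also called 0. For Srrm2 the interaction was log2 -0.01 (interval -0.11 to 0.10) and for Leng8 0.04 (interval -0.10 to 0.18).

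**Figure D3:**
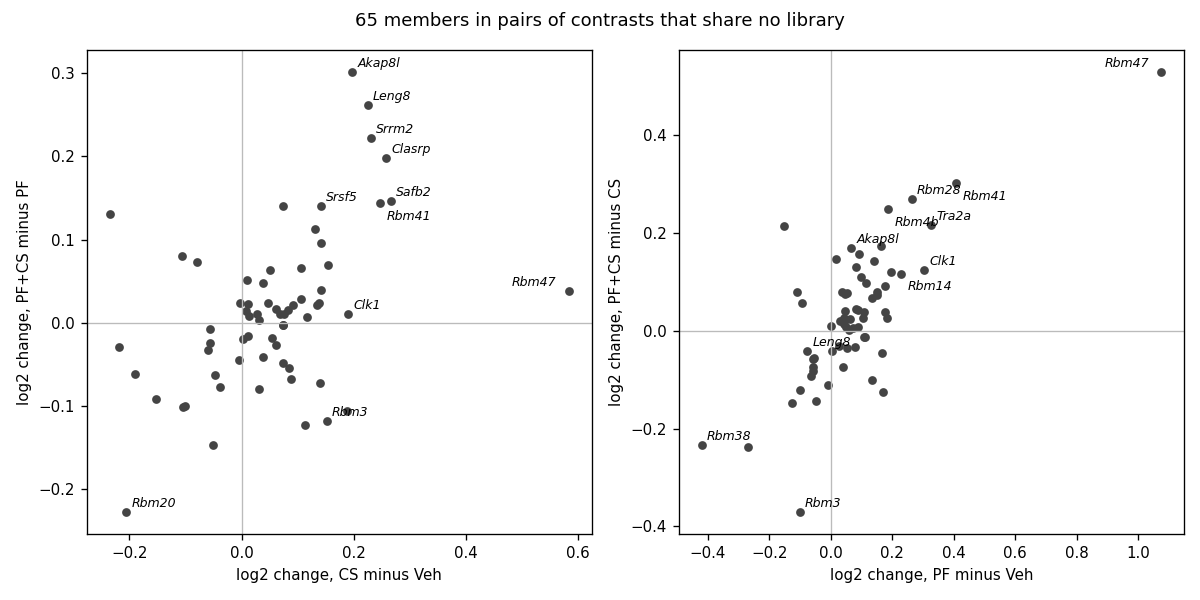
Log2 difference of each of the 65 members in pairs of contrasts that share no library: CS minus Veh against PF+CS minus PF, and PF minus Veh against PF+CS minus CS. Akap8l, Leng8, Srrm2, Clasrp and Safb2 lie at the upper right of the first panel, and Rbm28 and Rbm41 at the upper right of the second.

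For the ration without celastrol, PF minus Veh, the called members were not the 3 called in PF+CS minus PF. By edgeR 5 of 65 rose and 0 fell, where 2.36% of all genes tested were called higher and 1.28% lower. This comparison shares the Veh libraries with CS minus Veh. The 5 were Rbm41, Rbm28, Safb, Rbm14 and Clk1. Rbm41 and Clk1 were also among the highest in CS minus Veh, and Safb lay above Veh there without overlap. A call in one contrast and none in another is no test of their difference, so the calls do not divide members into celastrol and ration genes. The interaction, with 0 of 65 members called, asks only whether the celastrol difference changed with feeding. The median log2 difference over members was 0.07 against 0.00 over all genes, and 48 of 65 lay above 0 against 49.8% of all genes. There were 8 members above without overlap and 0 below, where 4.59% and 3.67% of all genes were.

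Rbm28 (ENSMUSG00000029701.15, chr6:29123576-29165006), a nucleolar protein known in yeast for its part in ribosome assembly, was 52.3, 48.5, 55.6 and 53.3 CPM in Veh and 68.2, 60.2, 55.5 and 67.9 CPM in PF. It was 49.3, 49.4, 57.8 and 54.1 CPM in CS and 67.5, 63.0, 66.4 and 56.9 CPM in PF+CS. The rationed groups were high with and without celastrol, with PF 3 and PF+CS 4 inside the range of the freely fed libraries. The ration difference was log2 0.26 (SE 0.07, adjusted p = 0.0269) without celastrol and 0.27 (SE 0.07, adjusted p = 0.0268) with it, by edgeR, in comparisons that share no library. The interaction was 0.01 (interval -0.18 to 0.19).

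Rbm41 (ENSMUSG00000031433.15, chrX:139889511-139998595), an RNA-recognition protein of the minor spliceosome in human cells, was 16.7, 13.5, 17.7 and 15.9 CPM in Veh and 20.1, 22.3, 18.3 and 23.5 CPM in PF. It was 19.99, 17.1, 20.5 and 18.4 CPM in CS and 25.2, 24.3, 22.8 and 21.5 CPM in PF+CS. Both PF and PF+CS were above Veh without overlap, and PF+CS was also above CS. The log2 difference was 0.41 (SE 0.10, adjusted p = 0.0169) in PF minus Veh and 0.30 (SE 0.09, adjusted p = 0.0693) in PF+CS minus CS, by edgeR.

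Clk1 (ENSMUSG00000026034.17, chr1:58410189-58424066), a kinase of SR proteins, was 126, 123, 155 and 137 CPM in Veh and 166, 190.4, 148 and 166 CPM in PF. It was 154, 156, 148 and 161 CPM in CS and 183, 170.4, 158 and 165 CPM in PF+CS. Veh was the lowest group on average, and Veh 3 lay within the range of PF. The PF minus Veh difference was log2 0.30 (SE 0.08, adjusted p = 0.0393 by edgeR).

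Rbm14, a coactivator and paraspeckle protein, rose by log2 0.23 (SE 0.06, adjusted p = 0.0343 by edgeR), from 36.7 to 42.3 CPM in Veh to 44.7 to 47.3 CPM in PF, without overlap. Safb, the neighbour and paralog of Safb2, rose by log2 0.17 (SE 0.05, adjusted p = 0.0293), with 105, 104, 115 and 117 CPM in Veh and 129.7, 133, 116 and 121 CPM in PF. Its PF 3 library lay below the highest Veh library. Safb2 in the same contrast was log2 0.11 (adjusted p = 0.239). Reads of the pair may be shared between them, since the proteins are close paralogs.

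Without Veh 2 or without PF 4, 0 of the 5 ration calls were left, and with FPKM values there were also 0. With the replicate number as a block there were 3.

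**Figure D4:**
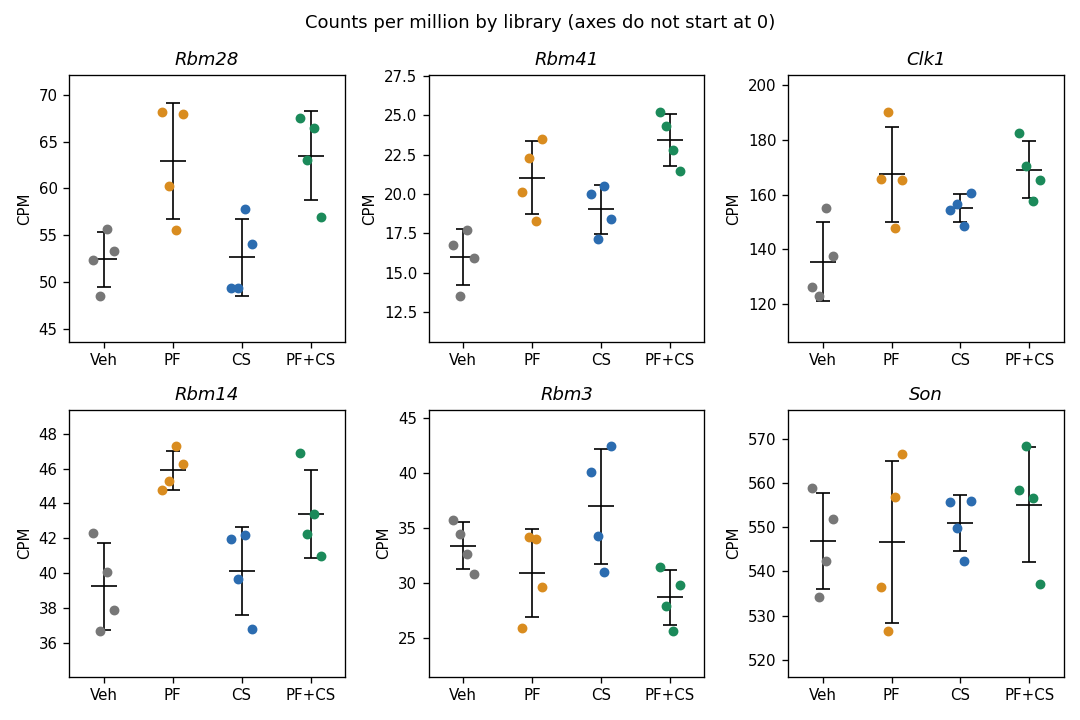
CPM of Rbm28, Rbm41, Clk1, Rbm14, Rbm3 and Son in each library by group, with the group mean and SD; axes do not start at 0. Rbm28 is higher in both rationed groups, Rbm3 is lowest in PF+CS, and Son lies between 527 and 568 CPM in every library.

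With celastrol, the ration (PF+CS minus CS) raised 1 member, Rbm28, and lowered 1, Rbm3, where 1.79% of all genes tested were called higher and 0.866% lower. This comparison shares the CS libraries with CS minus Veh. Rbm3 (ENSMUSG00000031167.16, chrX:8138975-8145880) is a cold-inducible RNA-binding protein that is high at low body temperature. Its counts were 35.7, 34.5, 32.6 and 30.8 CPM in Veh and 25.8, 34.2, 34.0 and 29.6 CPM in PF. They were 40.1, 34.3, 31.0 and 42.4 CPM in CS and 31.4, 27.9, 25.6 and 29.8 CPM in PF+CS. PF+CS was low and CS high, with PF+CS 1 just above CS 3.

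The Rbm3 difference was log2 -0.37 (SE 0.09, adjusted p = 0.0367 by edgeR) in PF+CS minus CS and -0.10 (adjusted p = 0.639) in PF minus Veh. In FPKM the ration groups stood apart more clearly, with 10.1, 10.7, 8.39 and 10.4 in Veh against 5.37, 6.88, 8.38 and 5.92 in PF. In CS the FPKM were 11.8, 10.6, 9.51 and 13.0, and in PF+CS 6.37, 6.29, 5.27 and 8.16. In that unit every rationed library was below every freely fed one, by the narrowest of margins between PF 3 and Veh 3. Cirbp, the cold-inducible relative of Rbm3, was 69.4 to 78.0 CPM in Veh, 42.5 to 69.1 in PF, 67.9 to 80.3 in CS and 44.3 to 68.5 in PF+CS. Its log2 difference was -0.49 in PF minus Veh (adjusted p = 0.10), -0.54 in PF+CS minus CS (adjusted p = 0.0797) and -0.52 in PF+CS minus Veh (adjusted p = 0.0442), by edgeR.

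There were 8 members above without overlap between PF+CS and CS, where 5.75% of all genes were, among them Akap8l, Safb, Clk2 and Srrm3. Rbm33 was the 1 below, where 4.33% were. The number of members called in PF+CS minus CS was 0 without CS 1, without CS 4, or without any of PF+CS 1, 2 or 3, 1 without CS 2 and 5 without PF+CS 4.

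Between PF minus Veh and PF+CS minus CS, 51 of 65 members had the same sign, against 64.3% of all genes. The log2 differences had r = 0.74 and rho = 0.59 across members, and r = 0.64 across all genes, over genes that are not independent. Over the 54 members with a mean of 20 CPM or more it was r = 0.59, below that of all genes, to which no such minimum was applied. By rank the order was the other way, with rho = 0.53 over these 54 and 0.42 over all genes. For Tra2a the values were log2 0.33 and 0.22, and for Srsf7 0.15 and 0.07. None of these 4 differences passed the test.

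Both treatments together, PF+CS minus Veh, gave the most called members of the contrasts tested. This comparison does not depend on the names PF and CS, but it shares the Veh libraries with CS minus Veh, so its calls are not independent of the choice of members. By edgeR 14 of 65 rose and 0 fell, where 5.85% of all genes tested were called higher and 4.47% lower. The scaffold and SR-related genes were among them, with Akap8l at log2 0.37 (SE 0.05, adjusted p = 7.94e-05), Srrm2 at 0.25, Safb2 at 0.25, Safb at 0.24, Clasrp at 0.23, Srrm3, a neural microexon regulator, at 0.23 and Leng8 at 0.18. The rest were Rbm41 at 0.55 (SE 0.09, adjusted p = 0.000424), Clk1 at 0.31, Rbm28 at 0.28, Clk2 at 0.23, the splicing regulator Rbm10 at 0.19, the SR protein Srsf7 at 0.15 and Rbm39 at 0.13. There were 15 members above without overlap and 1, Rbm7, below, where 6.82% and 6.84% of all genes were. Safb was 131, 131, 132 and 131 CPM in PF+CS, all above the Veh libraries.

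Akap8l, Rbm41, Safb and Srrm2 were called in PF+CS minus Veh under all 28 alternatives. Members followed throughout that were not called there included Srsf5 at log2 0.09, Luc7l3 at 0.10, Tra2a at 0.33 (interval 0.05 to 0.61, adjusted p = 0.170) and Son at 0.02 (interval -0.04 to 0.08). On FPKM values 5 members were higher, Akap8l, Clk1, Rbm41, Safb and Srrm2, and 2 were lower, Rbm3 and Srsf3. Rbm3 was log2 -0.60 in FPKM and -0.22 in counts, and Srsf3 -0.13 and -0.02.

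**Figure D5:**
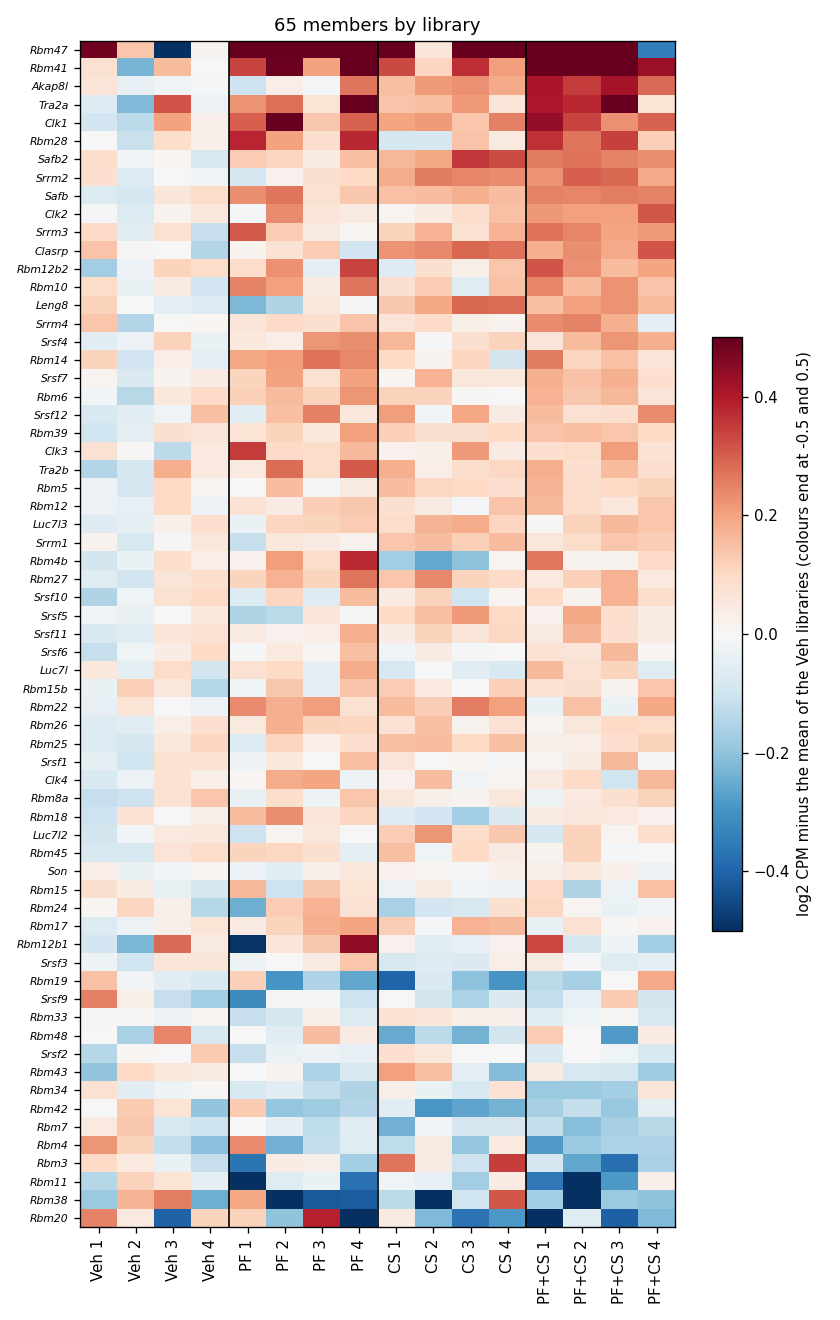
Log2 CPM of each of the 65 members in each library minus the mean of the Veh libraries, in colours that end at -0.5 and 0.5, sorted by the PF+CS mean. Akap8l, Safb2, Srrm2, Clasrp and Leng8 are red across CS and PF+CS, and Rbm28 across PF and PF+CS.

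Over all 65 members, the mean log2 difference from the Veh mean was -0.03 to 0.03 in the Veh libraries, 0.04 to 0.11 in PF, 0.04 to 0.07 in CS and 0.07 to 0.10 in PF+CS. The members' share of all counts was 0.719% in PF+CS, 0.718% in CS, 0.685% in PF and 0.659% in Veh. By transcript length, the median log2 difference over all genes went from -0.05 in the shortest of 4 equal classes to 0.03 in the longest in CS minus Veh, and from -0.03 to 0.01 in PF+CS minus PF. Members had a median longest transcript of 3728 bases against 3446 over the genes tested.

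Other RNA classes and cell type markers were summed in the same libraries. Ribosomal protein genes, 69 tested, were on average lower by log2 0.11 in CS and 0.12 in PF+CS. In PF+CS minus Veh 19 of 69 were called lower, where 4.47% of all genes were. In PF+CS minus PF 0 of 69 were called lower, where 0.00677% of all genes were. Their median log2 difference there was -0.06, with 6 of 69 above 0. The 8 nuclear-retained RNAs tested summed to 28270.0 to 30230.4 CPM in Veh, 28535 to 33074 in PF, 33087 to 34491 in CS and 31699 to 35079.8 in PF+CS. Of these 8, 0 were called in PF+CS minus PF, though all 8 lay above 0 there with a median log2 difference of 0.14. In PF+CS minus Veh 4 of 8 were called higher, where 5.85% of all genes were. Rn45s, a ribosomal RNA precursor, took 3.48 to 5.62% of counts in Veh, 2.78 to 3.94% in PF, 2.44 to 2.89% in CS and 2.79 to 4.03% in PF+CS, so that CS lay below Veh without overlap. The 6 endothelial markers summed to 103 to 119.8 CPM in Veh, 109.6 to 144 in PF, 116 to 158 in CS and 153 to 189 in PF+CS. Of these 6, 3 were called higher in PF+CS minus Veh, where 5.85% of all genes were. The 6 microglia markers summed to 158 to 165 CPM in Veh, 126 to 145 in PF, 150.0 to 158 in CS and 125 to 154 in PF+CS. Of them Aif1 was called lower in PF minus Veh, at -0.84, from low means of 3.27 CPM in Veh and 1.81 CPM in PF. Against the sum, C1qa was called higher in PF+CS minus CS, at 0.33, and in PF+CS minus Veh, at 0.26. The 6 oligodendrocyte markers had a mean log2 difference from Veh of -0.16 in PF and -0.20 in PF+CS, with CS at 0.08. Of them Cnp was called lower in PF minus Veh, at -0.34, and in PF+CS minus Veh, at -0.40, Mbp was lower in PF+CS minus CS, at -0.22, and Mobp was higher in PF+CS minus Veh, at 0.31. The 6 astrocyte markers stood at -0.12 in PF+CS and -0.10 in CS, with PF at -0.04, and Gfap was called lower in PF+CS minus Veh, at -0.33. No marker of these cell types was at 0 over the libraries. The part of these RNA classes and markers in the members' differences was not tested.

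Other lists of splicing genes were counted in the same comparisons. By edgeR, none of their genes was called in PF+CS minus PF, where 0.088% of all genes were called higher. The lists were 46 genes of the core spliceosome, 24 hnRNP proteins, 7 other SR-protein kinases and phosphatases and 26 neural splicing regulators. With them were 17 exon junction and decay factors and 8 paraspeckle proteins. The core list was not limited to snRNP proteins, and it shared a gene with the decay list. In PF minus Veh 2.36% of all genes were called higher. There the core list had 3 of 46 higher, Snrnp48 of the minor spliceosome at 0.48, Prpf3 at 0.33 and Prpf38b at 0.22. The decay list had 3 of 17 higher, among them Upf2 at 0.22 and Smg1 at 0.21. Hnrnpc was called higher with the ration both without celastrol, at log2 0.19, and with it, at 0.21. It was the only gene of its list called in PF minus Veh, where 12 of the 24 hnRNP genes lay above 0 with a median of 0.01. Sfpq, a paraspeckle protein, was higher at 0.20 and the kinase Prpf4b at 0.17 in PF minus Veh. In PF+CS minus Veh 5.85% of all genes were called higher and 4.47% lower. There the core list had 6 of 46 higher and 1 lower, with Acin1 at 0.25 first by adjusted p. The decay list had 4 of 17 higher and 1 lower, and the neural list 2 of 26 higher, Celf4 at 0.13 and Ptbp3 at 0.19. The hnRNP list had 0 of 24 higher and 1 lower, Hnrnpa0 at -0.15.

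In the authors' deposited table made from the CS and PF+CS columns, 2 of 65 members were positive at an adjusted p of at most 0.05, Akap8l at log2 0.15 and Rbm28 at 0.22, and 1 was negative, Rbm3 at -0.26. The authors' deposited table has 2.16% of its genes with an adjusted p positive and 1.06% negative by that rule. In the authors' deposited table made from Veh and PF+CS, 12 members were positive and 0 negative, where 4.47% and 2.52% of its genes were. In that made from Veh and PF, 2 of 65 were positive and 0 negative, fewer than the 5 called above in PF minus Veh. The share over all genes of that table was not taken. These deposited tables use the same libraries as the counts above and are no independent evidence.

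Several members share their locus or their sequence with other genes, and the strand of the libraries is not stated. Reads of a gene and of one overlapping it on the other strand cannot then be told apart. A coding gene overlaps on the other strand for 12 members, among them Srrm2 with Elob, Leng8 with Leng9, Rbm10 with Ndufb11, Clk3 with Edc3 and Son with Donson. Paralogs such as Safb and Safb2, Rbm4 and Rbm4b, Rbm12b1 and Rbm12b2, and the Luc7-like genes may share reads as well.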

How the data were processed

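Gene counts were deposited as whole numbers. A further deposited table was read as FPKM, since its values are not whole and decline with transcript length. Per the file headers, 5 comparison tables give baseMean, a log2 fold change, a Wald statistic (a score) and a p-value with its adjusted value. The deposited baseMean averages normalised counts. Per the submitters' processing notes, the build was GRCm38; for strand, counter and aligner the sources used here give nothing. Of the rows, 27 carry names turned into dates and hold 0.220 to 0.240% of counts, and 0 columns came from another series.

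Members and gene lists were chosen with earlier results of these data known. Counts of all 16 libraries were fitted with edgeR 4.0.16 in R 4.3.3 (quasi-likelihood test, robust). Scaling was by TMM, filterByExpr used a minimum count of 10, and p-values were adjusted by Benjamini-Hochberg over 14775 genes, with calls at 0.05. The SE is the log2 difference over the square root of F. The script was tested on simulated data. Positions came from GENCODE (GRCm38) and promoters from RefSeq. Alternatives used DESeq2 1.42.0 and limma 3.58.1 (voom, and log2 FPKM with a pseudocount of 0.1 or 1). Other alternatives were DESeq2 size factors, scaling without ribosomal proteins and Rn45s, no filter, an offset for GC content and length, the replicate block, only the groups compared, and libraries left out.

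Named genes were Srrm2, Safb2 and Clasrp, 10 members followed throughout, members called in tested contrasts, the 6 highest and 6 lowest in PF+CS minus PF, the 8 highest and 5 lowest in CS minus Veh, the family extremes of FPKM, and up to 3 called genes per other list, of which 1 is not reported here. Members without overlap between groups were named beside this rule. Depth was 6008564 to 12880459 counts a library.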

Additional observations from a re-analysis of the deposited data

Results flagged for a closer look

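Clk2, a kinase of SR proteins, stood apart in PF+CS 4 at 37.7 CPM, with the other 3 PF+CS libraries at 35.0 to 35.3 CPM. Luc7l3, a U1 snRNP partner, stood apart in PF 1 at 207 CPM, with the other 3 PF libraries at 228 to 231 CPM. Each was farther from its nearest neighbour, relative to the range of its group, than Dixon's criterion for 4 values allows. Among 88 groups of 4 libraries checked for 22 named members, 2 were marked, where chance marks about 1 in 20, or 4.4.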

How the results depend on the processing

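No result reversed. Over 26 gene results and 28 alternatives each, 579 of 728 values kept their side of the threshold and 149 of 728 lost the call. Leaving out the 5 libraries low in meningeal markers was chosen from earlier results of these data. Of 3 members called in PF+CS minus PF, 1 was called when only the groups compared were fitted, 1 with the offset for GC content and length, and 0 without the 5 libraries low in meningeal markers or on FPKM in all 3 forms. Leaving out a library gave 0 to 3, with 1 called without PF 1 or PF+CS 3 and 0 without PF 2. Of 5 in PF minus Veh, 2 were called with only the groups compared and 0 on FPKM in all 3 forms, and leaving out a library gave 0 to 7, with 2 without Veh 1, PF 1 or PF 2 and 0 without Veh 2 or PF 4. Of 2 in PF+CS minus CS, 4 were called with only the groups compared, 4 without the 5 libraries and 1 on FPKM in all 3 forms, and leaving out a library gave 0 to 5. Of 14 in PF+CS minus Veh, 7 were called on FPKM with either pseudocount and 5 with no filter, and leaving out a library gave 8 (without Veh 2) to 18. The interaction had 0 calls in every alternative. The causes of these shifts were not tested.

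The replicate numbers did not pair the libraries: of 24 same-numbered pairs 5 had a correlation above 0.1 (range -0.42 to 0.33), and 1 of 16 libraries correlated best with its own number. With the replicate number as a block, 3 members were called in PF minus Veh and 1 in PF+CS minus CS.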
